A study of Mus musculus with 10 samples.

Results

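The genes described here encode the G1 cell cycle switch of the cell: the D cyclins (Ccnd1, Ccnd2, Ccnd3), their kinases (Cdk4, Cdk6), the inhibitors p27 (Cdkn1b) and p18 (Cdkn2c), the retinoblastoma protein (Rb1) and the E cyclins (Ccne1, Ccne2). They were chosen by gene symbol, under a rule that used no measured value, but with earlier results of these data known. All 10 were found among the 23234 symbols of a table of transcript levels from mouse ovarian follicle cells. The levels are FPKM, which divide the fragments of a gene by its transcript length and by the library's mapped fragments, in 10 libraries of total RNA. Libraries came from cumulus cells of C57BL/6 mice aged 10 months (n = 3), mural granulosa cells (the layer along the follicle wall) of 2-month-old C57BL/6 mice (n = 2), whole cumulus-oocyte complexes (COC) of PMSG-primed mice aged 3 weeks of strain BDF1 (n = 1) and of strain DBA/2 (n = 1), and cumulus cells of C57BL/6 mice aged 2 months (n = 3). The labels name a culture medium with the phosphodiesterase inhibitor milrinone for all samples, and mural cells from mice primed with eCG, a gonadotropin that is another name for PMSG. The labels do not state priming for the cumulus donors, so mural site and priming cannot be told apart. Separate animals are not named for the libraries of a group. The p-values therefore measure only how far these libraries spread, and that spread may be technical.

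D cyclins bind CDK4 or CDK6, and the complexes phosphorylate the retinoblastoma protein, which then releases E2F factors. E2F factors switch on cyclin E and the genes of DNA replication, and cyclin E with CDK2 carries the cell into S phase. INK4 proteins such as p18 bind CDK4 and CDK6 directly, whereas p27 binds cyclin-CDK2 complexes and is also held by cyclin D complexes. In rodent granulosa cells cyclin D2 is the D cyclin induced by follicle-stimulating hormone, and p27 increases as the cells leave the cycle to form the corpus luteum. Female mice that lack Ccnd2 or Cdkn1b are infertile.

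Promoters are shown for 3 genes that stand for the kinase, the E cyclin and the inhibitor, so that their base composition and motif words can be set beside the levels that follow. The sequences are from RefSeq, build GRCm38.p6, and end at the base before the start site. Capitals mark the E-box CACGTG in Cdk4 (chr10:127063285-127063534, + strand), the GC box GGGCGG on either strand in Ccne1 (chr7:38107491-38107740, - strand) and the NF-Y box CCAAT in Cdkn1b (chr6:134920151-134920400, + strand).
Cdk4: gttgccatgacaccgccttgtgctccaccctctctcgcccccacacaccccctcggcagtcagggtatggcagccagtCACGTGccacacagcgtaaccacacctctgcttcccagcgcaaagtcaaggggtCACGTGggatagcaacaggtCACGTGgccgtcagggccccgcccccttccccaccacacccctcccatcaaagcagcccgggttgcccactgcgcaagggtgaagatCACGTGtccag
Ccne1: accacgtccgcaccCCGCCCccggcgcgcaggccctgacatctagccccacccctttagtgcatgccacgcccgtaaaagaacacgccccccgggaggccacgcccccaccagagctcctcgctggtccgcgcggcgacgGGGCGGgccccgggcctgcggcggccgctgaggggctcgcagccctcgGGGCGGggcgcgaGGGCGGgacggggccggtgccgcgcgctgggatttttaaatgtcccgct
Cdkn1b: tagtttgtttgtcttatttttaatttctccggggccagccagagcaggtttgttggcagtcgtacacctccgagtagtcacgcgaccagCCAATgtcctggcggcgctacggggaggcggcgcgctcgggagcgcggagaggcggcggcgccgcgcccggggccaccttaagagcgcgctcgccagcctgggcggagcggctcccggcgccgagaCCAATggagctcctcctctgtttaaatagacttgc

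The Cdk4 promoter held 4 E-boxes, the word that MYC and USF factors bind, between 172 and 6 bases before the start site. At least 1 E-box was found in 6.02% of 32851 promoters of 250 bases, and 4 or more in 7 of them (0.0213%). The Ccne1 promoter held 4 GC boxes, the word of SP factors, which 32.7% of promoters held at least once and 4.09% held 4 times or more. Its GC content was 76.0% against a median of 52.4%. The Cdk4 and Cdkn1b promoters each had 64.4%, and the Cdkn2c promoters had 42.8% and 77.2%. The Cdkn1b promoter held 2 NF-Y boxes and 1 GC box, and 33.8% of promoters held an NF-Y box. Of the 10 genes, 6 had a promoter in the table, with 8 start sites in all. Ccnd1, Ccnd2, Ccne2 and Rb1 had no entry. None of the 8 promoters held an E2F word (TTTCCCGC, TTTCGCGC, TTTGCCGC or TTTGGCGC on either strand, found in 1.86% of promoters), and 1 of the Ccnd3 promoters held the FOXO word GTAAACA, found in 3.17%. The marked words did not overlap each other. The words were chosen after the sequences were seen, and a match describes letters, not a bound site.

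**Figure D1:**
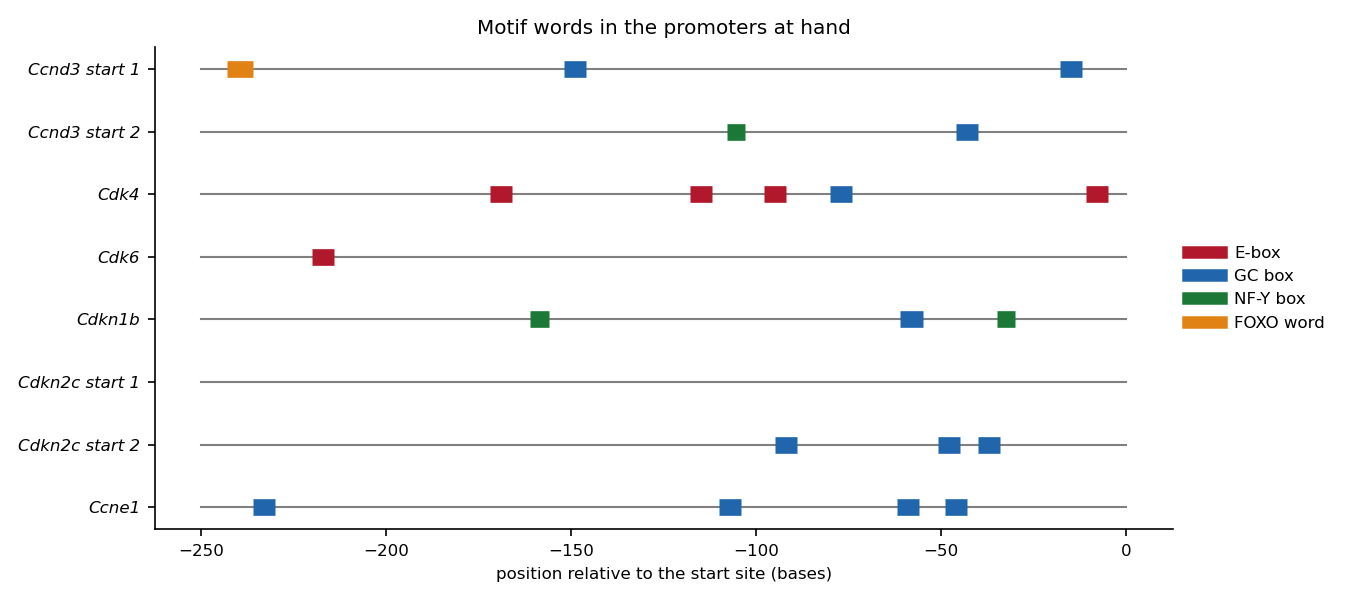
Positions of motif words in the 8 promoters, in bases before the start site (0), with each word in its own colour; start sites of a gene are numbered by genome position. Cdk4 carried 4 E-boxes and Ccne1 4 GC boxes, and the Cdkn2c promoter named start 1 carried none of the words searched.

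Libraries were checked against markers of their labelled cells. All 7 granulosa markers reached an FPKM of 1 in every library. Cumulus markers (3 genes) summed to 554 to 964 FPKM in cumulus cells at 10 months and 559 to 755 FPKM at 2 months. They summed to 294 and 141 FPKM in mural cells, 737 FPKM in BDF1 and 271 FPKM in DBA/2 complexes. In DBA/2 complexes Amh stood at 44.6 FPKM, against 318 to 740 FPKM in the cumulus libraries. Npr2 (196 FPKM) and Slc38a3 (30.6 FPKM) lay within the range of those libraries. Oocyte markers (12 genes) summed to 3463 FPKM in the BDF1 and 3330 FPKM in the DBA/2 complexes. They summed to 175 to 383 FPKM in cumulus cells at 10 months and to 161 and 22.3 FPKM in mural cells, against 237, 4.43 and 1231 FPKM in replicates 1, 2 and 3 of cumulus cells at 2 months, which were thus uneven. Mural markers (6 genes) summed to 1939 and 3659 FPKM in mural cells and to 65.4 to 90.4 FPKM in cumulus cells at 2 months. In cumulus cells at 10 months they summed to 89.0, 381 and 997 FPKM. Replicate 3 of that group stood apart through Cyp11a1 (773 FPKM), with Lhcgr, Star and Cd34 also higher than in the other cumulus libraries. Its Cyp19a1 (46.8 FPKM, against 324 and 358 FPKM in mural cells) and Nppc (16.1 FPKM, against 150 and 147 FPKM) stayed far below the mural libraries. Replicate 2 at 10 months also lay above the 2-month cumulus libraries in Cyp11a1 (255 against 9.74 to 18.0 FPKM) and Lhcgr (12.5 against 1.41 to 2.02 FPKM). Its Nppc (31.0 FPKM) lay within their range. Results are also given without replicate 3 of both cumulus groups, a setting that keeps replicate 2 at 10 months. In bulk RNA, fewer cells of a type and less RNA per cell cannot be told apart. The number of reads per library is not stated, so the precision of low values is unknown.

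Ccnd2 was the main D cyclin transcript of these cells. The values are of RNA, and protein levels and kinase activity were not measured. Ccnd2 supplied 85.6 to 90.5% of the summed D cyclin FPKM in cumulus cells at 10 months, 83.4 and 87.7% in mural cells, 84.1% in BDF1 and 82.0% in DBA/2 complexes, and 92.4 to 94.5% in cumulus cells at 2 months. The shares of all 7 other libraries lay below those of the 3 cumulus libraries at 2 months. Ccnd3 made up most of the rest, and Ccnd1 reached 3.57% at most, in mural replicate 2. Among all genes of a library, Ccnd2 lay between the 93.5th and 97.4th percentile of level and Cdk4 between the 98.4th and 99.0th.

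Ccnd2 stood at 67.6, 86.2 and 82.9 FPKM in cumulus cells at 10 months, 70.7 and 73.9 FPKM in mural cells, 81.7 FPKM in BDF1 complexes and 61.7 FPKM in DBA/2 complexes, against 126, 130.0 and 109.5 FPKM in cumulus cells at 2 months. The 3 cumulus libraries at 2 months were the highest of all 10, with no overlap with any other group. The other 7 libraries interleaved, and the mural libraries lay within the range of the 10-month cumulus libraries.

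Ccnd3, the D cyclin of many blood and muscle cells, stood at 8.68, 13.9 and 8.20 FPKM in cumulus cells at 10 months and 8.31 and 11.5 FPKM in mural cells, against 10.1, 7.53 and 8.77 FPKM in cumulus cells at 2 months. These groups overlapped. In the complexes it stood at 14.8 FPKM in BDF1 and 11.9 FPKM in DBA/2, and the BDF1 value was the highest of the 10 libraries.

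Ccnd1, the D cyclin that growth factors induce in many epithelia and fibroblasts, was near the lower limit of the table. It stood at 0.252, 0.557 and 0.462 FPKM in cumulus cells at 10 months, 1.59 and 3.16 FPKM in mural cells, 0.667 FPKM in BDF1 and 1.59 FPKM in DBA/2 complexes, and 0.220, 0.0577 and 0.266 FPKM in cumulus cells at 2 months. Both mural libraries lay above every cumulus library. The same libraries differed in markers of other cells: theca and stroma markers summed to 100.001 and 147 FPKM in mural cells and 6.48 to 7.35 FPKM in cumulus cells at 2 months, and 6 and 7 of 7 against 2 or 3 of 7 reached an FPKM of 1. Endothelial markers summed to 23.1 and 61.9 FPKM in mural cells and 1.60 to 5.02 FPKM in cumulus cells at 2 months, where Emcn was at 0 in all 3 libraries. Immune markers summed to 21.6 and 52.6 FPKM in mural cells and 4.39 to 8.34 FPKM in cumulus cells at 2 months. The part of these cells in the Ccnd1 level, and in the other differences between mural and cumulus cells, was not tested.

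Of the kinase genes, Cdk4 had the higher transcript level. Cdk4 stood at 295, 287 and 195 FPKM in cumulus cells at 10 months, 184 and 186 FPKM in mural cells, 279 FPKM in BDF1 and 209 FPKM in DBA/2 complexes, against 369, 328 and 245 FPKM in cumulus cells at 2 months. The mural libraries were the lowest of the 10, and the cumulus groups overlapped. Cdk6 stood at 8.20, 3.69 and 7.48 FPKM in cumulus cells at 10 months, 3.25 and 5.17 FPKM in mural cells, 4.93 FPKM in BDF1 and 7.55 FPKM in DBA/2 complexes, against 7.58, 9.78 and 9.07 FPKM in cumulus cells at 2 months. Replicate 2 at 10 months, the lowest cumulus library, was below mural replicate 2. Within a library, Cdk4 exceeded Cdk6 by 26.1- to 77.9-fold, and the groups overlapped in this ratio.

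The E cyclins differed from each other in pattern. Ccne1 stood at 4.79, 11.0 and 4.21 FPKM in cumulus cells at 10 months, 5.64 and 4.10 FPKM in mural cells, 5.01 FPKM in BDF1 and 5.11 FPKM in DBA/2 complexes, against 10.7, 10.9 and 10.00 FPKM in cumulus cells at 2 months. Replicate 2 at 10 months lay with the 2-month cumulus libraries, and the other 2 replicates lay with the mural libraries and the complexes. Ccne2 stood at 4.43, 4.07 and 3.53 FPKM in cumulus cells at 10 months, 3.39 and 3.36 FPKM in mural cells, 8.24 FPKM in BDF1 and 6.96 FPKM in DBA/2 complexes, against 7.15, 6.85 and 5.49 FPKM in cumulus cells at 2 months. Ccne2 was thus high in the complexes and the 2-month cumulus libraries, and low in the other 5. The ratio of Ccne1 to Ccne2 was 0.608 in BDF1 and 0.735 in DBA/2 complexes, and 1.08 to 2.70 in the 8 C57BL/6 libraries.

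Of the inhibitors, Cdkn1b stood at 24.9, 27.8 and 23.9 FPKM in cumulus cells at 10 months, 29.8 and 43.5 FPKM in mural cells, 23.6 FPKM in BDF1 and 31.8 FPKM in DBA/2 complexes, against 20.6, 22.7 and 21.6 FPKM in cumulus cells at 2 months. The 2-month cumulus libraries, the highest of the 10 for Ccnd2, were the lowest for Cdkn1b. Cdkn2c stood at 8.29, 16.7 and 11.2 FPKM in cumulus cells at 10 months, 17.5 and 12.4 FPKM in mural cells, 15.0 FPKM in BDF1 and 20.8 FPKM in DBA/2 complexes, against 30.0, 20.9 and 15.0 FPKM in cumulus cells at 2 months, and all groups with more than 1 library overlapped. Rb1, the substrate that the cyclin D kinases inactivate, stood at 11.6, 13.1 and 16.8 FPKM in cumulus cells at 10 months, 11.0 and 11.7 FPKM in mural cells, 13.0 FPKM in BDF1 and 10.1 FPKM in DBA/2 complexes, against 13.3, 16.3 and 16.8 FPKM in cumulus cells at 2 months. Of the 10 genes Rb1 had the smallest ratio of highest to lowest level, and its cumulus groups overlapped, while mural cells lay below the 2-month cumulus libraries.

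**Figure D2:**
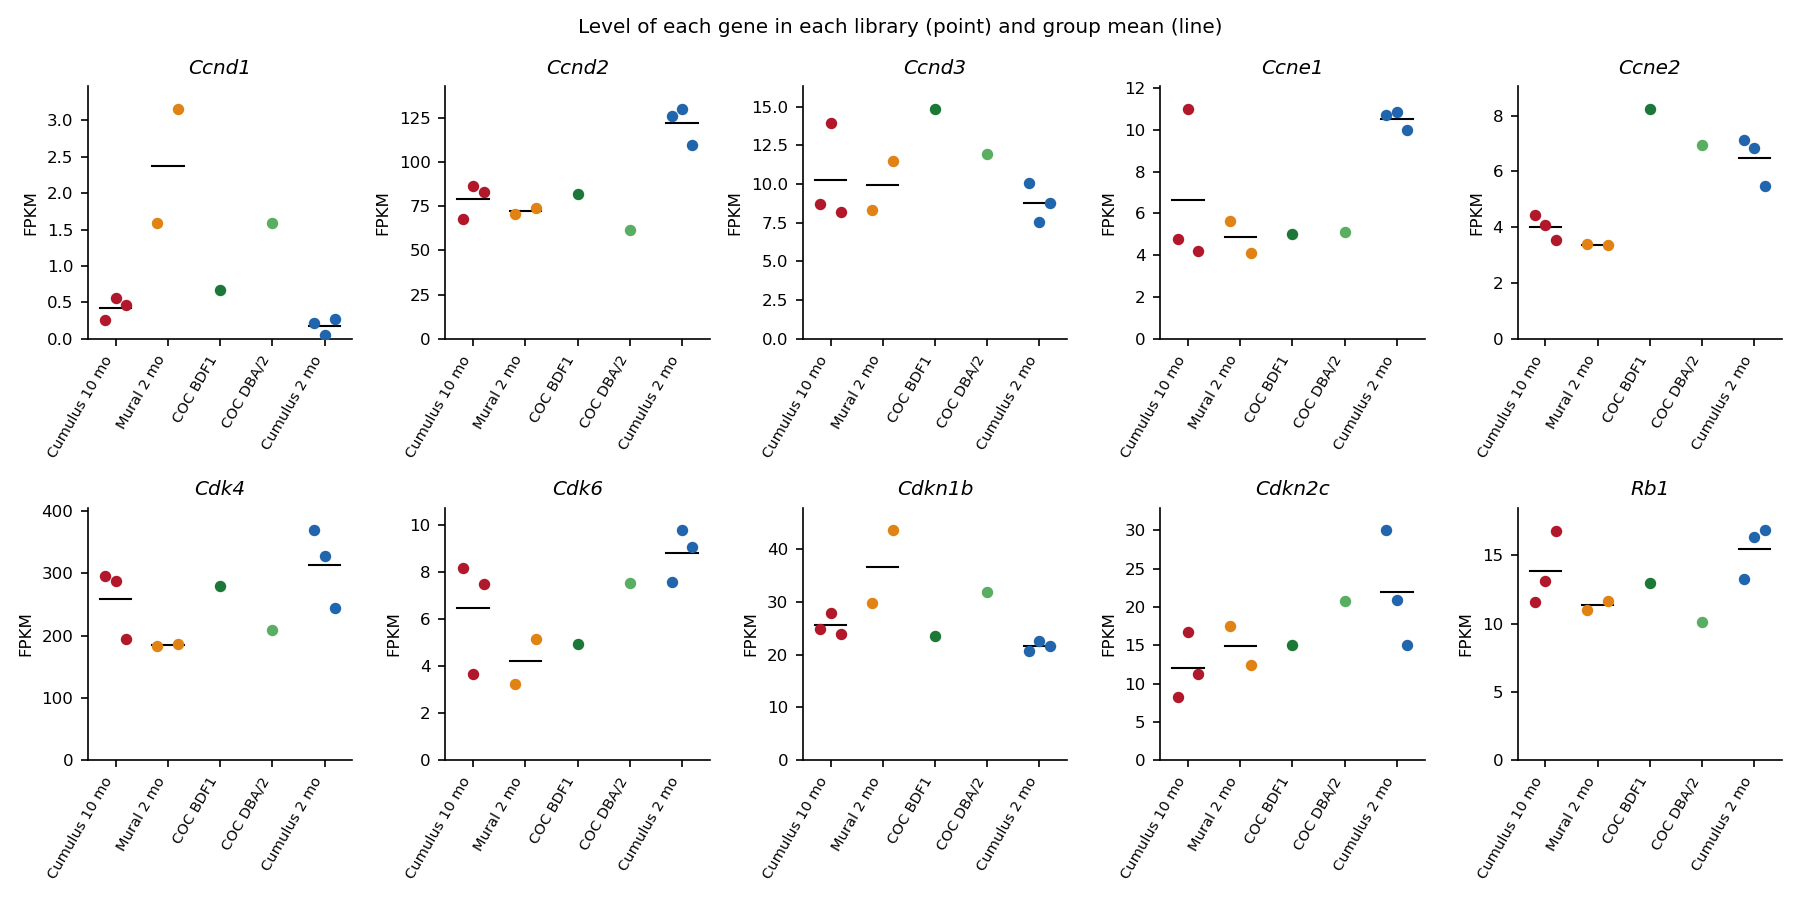
FPKM of each gene (vertical axes from 0) in each library (points), by group, with the group mean as a line where there is more than 1 library. Ccnd2 is highest and Cdkn1b lowest in the 3 cumulus libraries at 2 months, and Ccne1 at 10 months has 1 library at 11.0 FPKM and 2 at 4.79 and 4.21 FPKM.

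Set against each other within a library, where the scaling of the library cancels, Ccnd2 and Cdkn1b separated the 3 C57BL/6 groups. The ratio of Ccnd2 to Cdkn1b was 2.71, 3.10 and 3.46 in cumulus cells at 10 months, 2.37 and 1.70 in mural cells, 3.47 in BDF1 and 1.94 in DBA/2 complexes, against 6.11, 5.73 and 5.08 in cumulus cells at 2 months. Every 2-month cumulus library lay above every other library, and both mural libraries lay below every cumulus library. The complexes did not stand apart, with DBA/2 between the mural libraries and BDF1 level with replicate 3 at 10 months. The ratio of Cdk4 to Cdkn2c was 17.2 to 35.6 in cumulus cells at 10 months, 10.5 and 15.1 in mural cells, 18.5 in BDF1 and 10.1 in DBA/2 complexes, against 12.3 to 16.3 in cumulus cells at 2 months. In this ratio the 10-month cumulus libraries lay above the 2-month ones. These ratios were picked from the same values and carry no test.

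**Figure D3:**
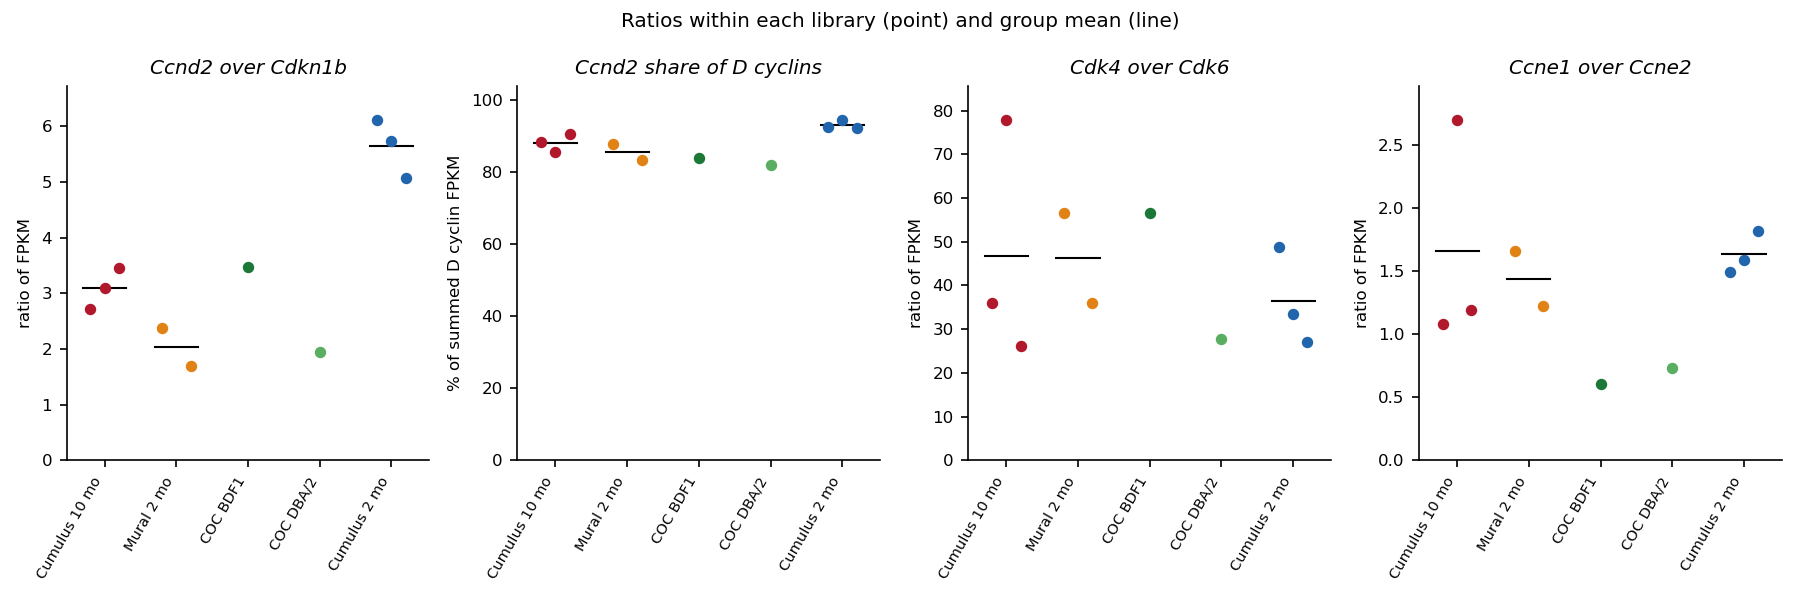
Ratios of FPKM within each library (points) by group, with group means as lines where there is more than 1 library; axes start at 0. The ratio of Ccnd2 to Cdkn1b is 5.08 to 6.11 in cumulus cells at 2 months and at most 3.47 in the other libraries.

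The first comparison set mural granulosa cells against cumulus cells, both at 2 months, and asks how these genes differ between the compartments. Transcripts of Ccnd2 and Ccne2 were lower and those of Cdkn1b higher in mural cells. Ccnd2 averaged 72.3 ± 2.21 FPKM in mural cells and 122 ± 10.9 FPKM in cumulus cells (SD over 2 and 3 libraries), a log2 fold change of -0.74 ± 0.15 (SE; limma, adjusted p = 0.0156). Ccne2 averaged 3.37 ± 0.0221 FPKM in mural cells and 6.50 ± 0.882 FPKM in cumulus cells (log2 fold change -0.77 ± 0.17, adjusted p = 0.0201, limma). Cdkn1b averaged 36.7 ± 9.69 FPKM in mural cells and 21.6 ± 1.03 FPKM in cumulus cells (log2 fold change 0.71 ± 0.17, adjusted p = 0.0268, limma). Fold changes are of FPKM + 1, which understates the change of low genes.

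Of the 10 genes, 9 passed the filter of a mean FPKM of 1 over the C57BL/6 libraries. Of these 9, 2 passed the test as lower and 1 as higher in mural cells (33.3%), where 20.9% of all 12412 genes tested passed, 11.2% as lower and 9.69% as higher. Groups did not overlap for 6 genes that were lower and 1 that was higher, against 32.0% and 25.6% of all genes (57.6% in both directions). An unadjusted p under 0.05 was reached by 5 lower genes and 1 higher gene, against 20.5% lower and 16.3% higher of all genes (36.8% in all). The median log2 fold change of the 9 genes was -0.74, against -0.08 over all genes. A further 4 genes had a lower mean in mural cells without overlap and did not pass. They were Cdk4 (185 ± 1.47 against 314 ± 63.0 FPKM, log2 fold change -0.74, adjusted p = 0.0647), Cdk6 (4.21 ± 1.36 against 8.81 ± 1.12 FPKM, -0.93, 0.0715), Ccne1 (4.87 ± 1.09 against 10.5 ± 0.463 FPKM, -0.99, 0.0772) and Rb1 (11.3 ± 0.455 against 15.5 ± 1.91 FPKM, -0.41, 0.146). For Ccnd3 the 95% interval of the log2 fold change was -0.43 to 0.73 and for Cdkn2c -1.30 to 0.31, so differences in either direction were compatible with the spread. Ccnd1, with a mean of 0.819 FPKM over the 8 libraries, was left out by the filter. With no filter its log2 fold change was 1.48 (adjusted p = 0.0103, limma).

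The calls changed when single libraries were left out, and so did the count over all genes. Without mural replicate 2, 0 of the genes described passed, and 96 of all genes did, against 2599 with every library. Without 2-month cumulus replicate 2, 0 passed, and 1208 of all genes did. With 1 mural library left, the p-values rest on the spread of the cumulus groups, and the lone library is assumed to vary like them. Without mural replicate 1, where 758 of all genes passed, only Cdkn1b passed (log2 fold change 0.98, adjusted p = 0.0333), and without 2-month cumulus replicate 1, where 1717 passed, only Ccnd2 (-0.72, 0.0449). Cdkn1b did not pass without 2-month cumulus replicate 3 either (0.71, 0.0585), while Cdk4 then passed (-0.91, 0.0462), with 1884 of all genes. Cdk4 also passed without 10-month cumulus replicate 3 (0.0273), which enters the fit through the shared spread, and 3251 of all genes did. Without 10-month cumulus replicate 2, where 2780 of all genes passed, Cdk6 (adjusted p = 0.0234) and Ccne1 (0.0117) passed as well, making 5. Without mural replicate 2, the library with the highest Cdkn1b, its log2 fold change was 0.45 (adjusted p = 0.193). When every library was rescaled to the same summed FPKM, which moved the median of all genes from -0.08 to 0.14, Ccnd2 did not pass (log2 fold change -0.49, adjusted p = 0.0687), while Ccne2 (-0.56, 0.0486) and Cdkn1b (0.96, 0.0114) did. Without replicate 3 of both cumulus groups, Ccnd2 (-0.82, adjusted p = 0.0156) and Ccne2 (-0.87, 0.0167) passed, Cdk4 did too (-0.91, 0.00688), and Cdkn1b did not (0.71, 0.0508). In that fit 3110 of all genes passed.

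The second comparison concerns age and set cumulus cells at 10 months against those at 2 months. None of the 9 genes tested passed, as 0.0% of all 12412 genes passed with limma. An unadjusted p under 0.05 was reached by 3 of the 9, all with a lower mean at 10 months, against 13.9% of all genes, 6.19% with a lower and 7.73% with a higher mean. Ccnd2 averaged 78.9 ± 9.91 FPKM at 10 months and 122 ± 10.9 FPKM at 2 months (SD over 3 libraries each), a log2 fold change of -0.62 ± 0.14 (SE; limma, adjusted p = 0.198). Ccne2 averaged 4.01 ± 0.452 FPKM at 10 months and 6.50 ± 0.882 FPKM at 2 months (-0.58 ± 0.15, adjusted p = 0.229, limma). Cdkn2c averaged 12.1 ± 4.28 FPKM at 10 months and 22.0 ± 7.54 FPKM at 2 months (-0.81 ± 0.31, adjusted p = 0.314, limma). Ages did not overlap for Ccnd2 and Ccne2, which were lower at 10 months, and for Cdkn1b, which was higher, against 8.88% lower and 8.93% higher of all genes (17.8% together).

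The intervals of the remaining genes included 0. The 95% interval of the log2 fold change was -1.40 to 0.02 for Ccne1, -1.10 to 0.20 for Cdk6, -0.78 to 0.22 for Cdk4, -0.54 to 0.22 for Rb1, -0.35 to 0.70 for Ccnd3 and -0.13 to 0.59 for Cdkn1b. Ccne1 depended on cumulus replicate 2 at 10 months, as did the count over all genes. Without it, the log2 fold change of Ccne1 was -1.07 (adjusted p = 0.0344, limma), and 280 of all genes passed, against 0 with every library. Ccnd2 passed with library weights (-0.77, adjusted p = 0.0486), where 69 genes passed in all. Markers of other cells moved with age in these libraries. Immune markers summed to 24.6 to 64.8 FPKM at 10 months and 4.39 to 8.34 FPKM at 2 months, with 7 to 9 of 10 against 2 or 3 of 10 at an FPKM of 1 or more, and theca and stroma markers to 22.7 to 47.7 FPKM at 10 months and 6.48 to 7.35 FPKM at 2 months, with 6 or 7 of 7 against 2 or 3 of 7 at that level. Surface epithelium markers summed to 58.4, 57.9 and 115 FPKM at 10 months and 26.9 to 34.9 FPKM at 2 months, with 2, 7 and 7 of 7 against 2 or 3 of 7 at an FPKM of 1 or more, and Krt19 was at 0 in all 3 libraries at 2 months. Erythroid markers summed to 20.1, 20.4 and 96.4 FPKM at 10 months and 13.3 to 18.3 FPKM at 2 months. The high sum came from the globin genes Hba-a1 (70.8 FPKM) and Hbb-b1 (17.8 FPKM) in replicate 3. There Alas2 went the other way, at 7.58 FPKM against 13.3 to 16.1 FPKM at 2 months, and Slc4a1 was at 0 in every library. Cd52 and Tyrobp were at 0 in 2 of the 3 libraries at 2 months and Ptprc in 1. Their part in the values above was not tested. Without replicate 3 of both groups the log2 fold change of Ccnd2 was -0.74 (adjusted p = 0.300) and that of Ccne2 -0.61 (0.333). Both comparisons share the 2-month cumulus libraries, so likeness between them is not read as a result.

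**Figure D4:**
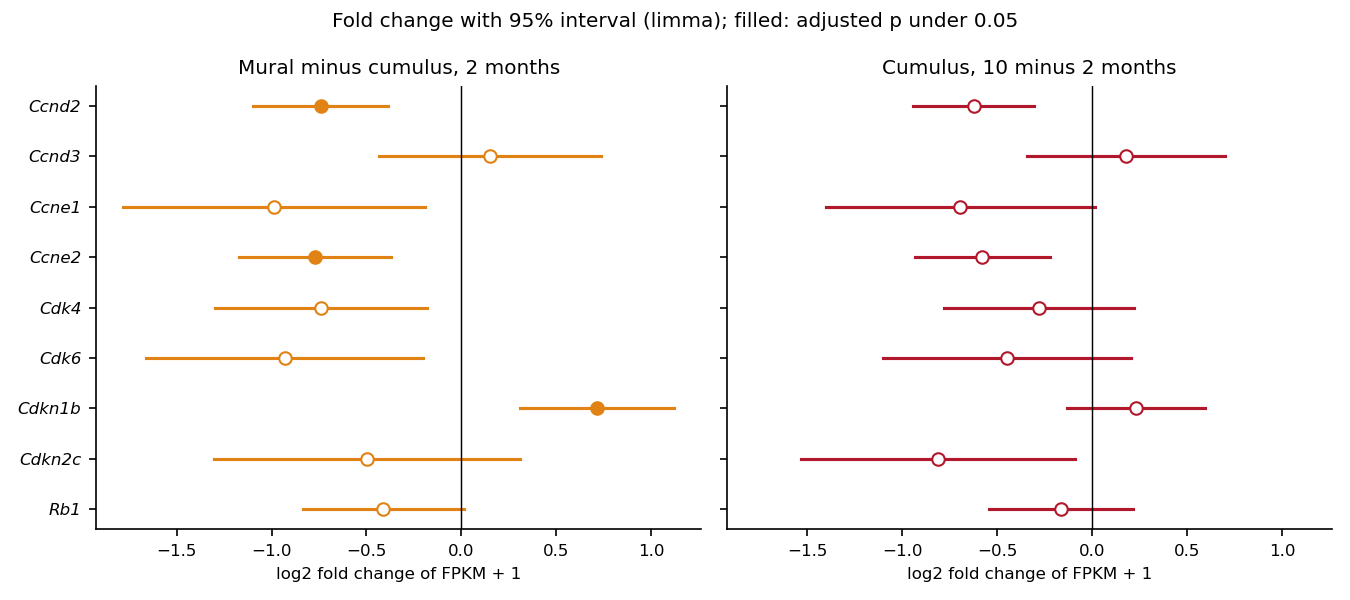
log2 fold change of FPKM + 1 (points) with its 95% interval (lines) for the 9 genes tested, mural minus cumulus cells at 2 months (left) and cumulus cells at 10 minus 2 months (right); filled points passed an adjusted p of 0.05. On the left Ccnd2, Ccne2 and Cdkn1b are filled, and on the right no point is.

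The complexes have 1 library per strain and carry no test. On the same scale, 0 of the 9 genes lay 2-fold or more from the 2-month cumulus mean in BDF1 complexes and 0 in DBA/2 complexes, against 15.8% and 19.7% of 12713 genes. Ccnd1, outside that set, stood 2.20-fold above it in DBA/2 complexes. The ratio of FPKM + 1 to that mean was 0.675 in BDF1 and 0.512 in DBA/2 complexes for Ccnd2, and 0.522 and 0.531 for Ccne1. Against the range of the 8 C57BL/6 libraries, Ccnd3 and Ccne2 lay above it in BDF1 complexes, and Ccnd2 and Rb1 below it in DBA/2 complexes. Of all genes, 32.6% lay above and 13.2% below the range in BDF1 complexes, and 32.3% above and 16.0% below it in DBA/2 complexes. In both complexes at once, 0 of the 10 genes lay above the range and 0 below it, against 24.4% and 7.82% of all genes. Strain, age, priming and the oocyte cannot be told apart here.

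The genes around the switch were read from 6 lists, which were chosen with earlier results of these data known. Calls of list genes were read at the main setting only, so how they depend on single libraries or scaling was not tested. In mural against cumulus cells at 2 months, 19 of 19 S phase targets of E2F passed as lower, where 11.2% of all genes did, with a median log2 fold change of -1.26 against -0.08 over all genes. Uhrf1, which keeps DNA methylation through replication, averaged 22.9 FPKM in mural and 66.0 FPKM in cumulus cells (adjusted p = 0.00343), and Mcm6, part of the replicative helicase, 42.1 and 108 FPKM (0.00486, limma). The same list had 0 of 19 past the test at 10 against 2 months, with 19 of 19 fold changes below 0, a median of -0.51 against -0.02, and 12 of 19 without overlap, against 8.88% of all genes that were lower. Cdc6, which loads the helicase, averaged 6.05 FPKM at 10 months and 10.4 FPKM at 2 months (adjusted p = 0.213, limma).

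Of 12 RB family, E2F and DP factors, 4 passed as lower in mural cells, where 11.2% of all genes did: E2f1, an activator (14.2 against 35.3 FPKM, log2 fold change -1.25, adjusted p = 0.0233), E2f7, a repressor (4.65 against 8.50 FPKM, -0.74, 0.0192), Rbl1, which encodes p107 (12.4 against 19.0 FPKM, -0.58, 0.0208), and Tfdp1, the DP1 partner (48.5 against 70.5 FPKM, -0.53, 0.0428). Rbl2, which encodes p130, did not pass (8.80 against 8.72 FPKM, adjusted p = 0.967). Of 8 CDK2 partners and activators, 4 passed as lower in mural cells, against the same 11.2% of all genes. They were Ccna2, cyclin A2 (39.1 against 77.4 FPKM, adjusted p = 0.00962), Cdc25a, the phosphatase that activates CDK2 (12.8 against 22.4 FPKM, 0.00997), Cks1b (72.0 against 163 FPKM, 0.0123) and Cks2 (77.9 against 181 FPKM, 0.0113). Cdk7, Ccnh and Mnat1, the CDK-activating kinase, did not pass (adjusted p = 0.387, 0.859 and 0.850). Neither list had a gene past the test with age.

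Of 10 genes for the turnover of cyclins and p27, 0 passed in either comparison, at adjusted p of 0.0584 and above for mural cells. Of all genes, 20.9% passed for mural cells and 0.0% with age. Skp2, which marks p27 for destruction, averaged 13.5 FPKM in mural and 18.1 FPKM in cumulus cells (adjusted p = 0.143, limma). Of 14 regulators of cyclin D2 and p27 in granulosa cells, 2 passed as higher in mural cells and 0 as lower. Of all genes, 9.69% passed as higher and 11.2% as lower. The 2 were Lhcgr, the luteinizing hormone receptor, and Inha, the inhibin alpha subunit (limma adjusted p = 0.00659 and 0.0224). Lhcgr was also among the mural markers, and Inha among the granulosa markers, that served to check the libraries. Fshr, the receptor of follicle-stimulating hormone, did not pass (67.3 against 76.5 FPKM, 0.641). With age, 8 of the 14 fold changes lay above 0 and 6 below. Ages did not overlap for 2 higher genes and 1 lower gene, against 8.93% and 8.88% of all genes. Cebpb, 1 of the higher genes, averaged 89.2 FPKM at 10 months and 47.6 FPKM at 2 months (adjusted p = 0.213, limma). Inhba, the activin subunit, was the lower one, at 334 and 683 FPKM (adjusted p = 0.212, limma). Foxo1, which represses Ccnd2, averaged 116 and 179 FPKM (adjusted p = 0.274, limma), and its ages overlapped.

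Of 5 other CDK inhibitors, 3 reached the filter and 0 passed in either comparison, where 20.9% of all genes passed for mural cells and 0.0% with age. Cdkn1a, which encodes p21 and is induced by p53, stood at 69.4, 20.2 and 92.1 FPKM in cumulus cells at 10 months, against 6.25, 8.01 and 9.39 FPKM in cumulus cells at 2 months (log2 fold change 2.56 ± 0.52 SE, adjusted p = 0.196, limma), and at 4.32 and 8.18 FPKM in mural cells. Each 10-month library lay above all 2-month cumulus and mural libraries. Cdkn1c, which encodes p57, averaged 2.87 FPKM in mural and 1.70 FPKM in cumulus cells at 2 months, without overlap (adjusted p = 0.189, limma). Cdkn2b, left out by the filter, stood at 0.704 and 2.07 FPKM in mural cells and 0 to 0.268 FPKM in those cumulus cells. Among the inhibitor genes tested only Cdkn1b passed as higher in mural cells, a call lost in some alternatives, and higher levels were not particular to it.

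**Figure D5:**
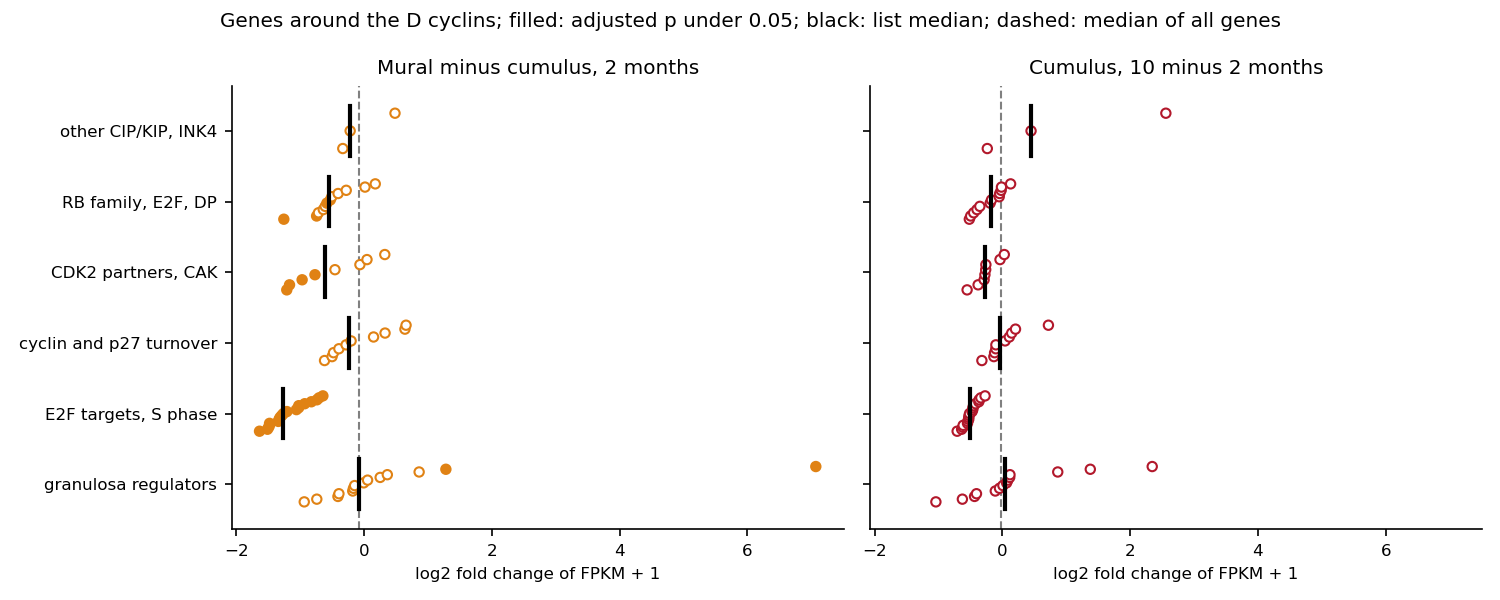
log2 fold change of FPKM + 1 of each gene (points) in the 6 lists, mural minus cumulus cells at 2 months (left) and cumulus cells at 10 minus 2 months (right); filled points passed, black bars are list medians and the dashed line is the median of all genes. All 19 S phase targets are filled on the left, and all lie below 0 on the right with none filled.

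Genes whose levels followed those of the called genes most closely over the 8 C57BL/6 libraries were sought among 8422 genes that averaged 5 FPKM or more. For Ccnd2 they were Lyrm4 (Pearson's r of log2 values 0.974), Foxk2 (0.971) and Ckap5 (0.959). For Ccne2 they were Slc16a6 (0.991), Psmd5 (0.984) and Stat5a (0.981), and for Cdkn1b they were Rnf41 (0.975), Ptplb (0.960) and Sar1b (0.956). For Cdk4 they were Mbd3 (0.993), Ruvbl2 (0.990) and Fbxo21 (0.988). The 8 points share library scaling and group differences, and many genes are compared, so these values describe likeness only.

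In the GENCODE M21 annotation, 7 of the 10 genes share exon sequence with a gene on the other strand, and no source used here says whether the libraries keep strand, so reads of such partners cannot be told apart. The partner of Cdk4, Tspan31, stood at 41.3 to 84.8 FPKM, below the 184 to 369 FPKM of Cdk4. The partner of Ccne2, Ints8, stood at 14.6 to 23.5 FPKM, above the 3.36 to 8.24 FPKM of Ccne2. The partner of Ccnd1, Oraov1, stood at 3.81 to 10.5 FPKM, above Ccnd1. Cdkn1b, Cdkn2c and Ccne1 have no such partner.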

How the data were processed

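The authors deposited 1 table of FPKM values. The submitters' processing notes name TopHat2 2.1.0, Cufflinks 2.1.0 and build mm9, and no annotation, strandedness or depth, so no interval for counting error is given. The table has 23234 symbols, after 1 repeated header line was dropped. On log2(FPKM + 1), 12412 genes that averaged 1 FPKM or more in the 8 C57BL/6 libraries were fitted jointly, with group as the factor and 5 residual degrees of freedom (limma 3.58.1, R 4.3.3, trended prior variance). P-values are two-sided and adjusted by Benjamini-Hochberg over all genes, with a threshold of 0.05. The model was tested on simulated data. The genes and lists were chosen with earlier results of these data known. By rule the text names all 10 genes, up to 4 genes per list that passed with the smallest p, and the 3 most alike genes, here for the 3 genes that passed and Cdk4. List genes named without a pass, the ratios and motif words were chosen after their values were seen. Alternatives changed pseudocount, filter, scaling, trend, weights, groups fitted, replicate block and libraries. Promoters and overlaps come from GRCm38 tables, whose coordinates are not those of mm9.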

Additional observations from a re-analysis of the deposited data

How the results depend on the processing

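Over 18 alternatives for each comparison, the count of genes passing for mural against cumulus cells was 96 to 3251 when single libraries were left out, and 5425 with library weights. Of the 10 genes described, 0 to 5 passed when single libraries were left out, 7 with library weights and 7 in a fit of the 2 groups alone. In the fit of the 2 groups alone, 3332 of all genes passed. With age, 0 to 280 of all genes and 0 to 1 of the 10 passed without single libraries, 280 of them without cumulus replicate 2 at 10 months. With library weights 69 genes and 1 of the 10 passed, and without replicate 3 of both cumulus groups, an alternative added after seeing the data, 7 genes. The causes were not tested. Without single libraries the log2 fold change of Ccnd3 ran from -0.044 (without cumulus replicate 2 at 10 months) to 0.31 with age, and from -0.063 (without mural replicate 2) to 0.36 for mural against cumulus cells, so its direction turned; the other genes kept theirs in every alternative run. With a pseudocount of 0.1, 2 of the 10 genes in BDF1 and 2 in DBA/2 complexes lay 2-fold from cumulus cells at 2 months, and without single 2-month cumulus libraries 0 in BDF1 and 1 to 2 in DBA/2 complexes. Genes higher in mural cells were 1203 of 2599 that passed and 1844 of 2653 after rescaling to the same sum. The replicate numbers are not stated to pair libraries. Deviations of same-numbered cumulus libraries had correlations of 0.00604, 0.118 and 0.147, against -0.138 to 0.0395 for other numbers. Mural and 2-month cumulus libraries of the same number had 0.0322 and 0.214, against -0.214 to 0.17 for other numbers. With 2 mural libraries these deviations mirror each other. With a replicate block 3361 genes and 4 of the 10 passed for mural against cumulus cells, Cdk4 among them (-0.92, adjusted p = 0.0072), and 0 genes with age. Ccne2 has no value under a filter at a mean of 5 FPKM, and Ccnd1 has one only without a filter and in the mural fit of 2 groups.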
